A study of Mus musculus with 12 samples.

Results

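The CXC and CX3C chemokine ligands are small secreted proteins that guide leukocytes and other cells along a gradient, and 10 of them were followed in the post-stroke brain at 14 d: *Cxcl1*, *Cxcl2*, *Cxcl9*, *Cxcl10*, *Cxcl12*, *Cxcl13*, *Cxcl14*, *Cxcl16*, *Cx3cl1* and *Pf4*. They were chosen by name, as the 10 rows whose Ensembl identifier carries one of these symbols, out of 49315 genes in the count table. All 10 had counts, 9 were among the 20290 genes that passed the filter on low counts, and *Cxcl2* was not. The question put to them was whether ligands made on inflammatory demand differed between the groups in the way that ligands made constantly by brain tissue did.

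Chemokines of the CXC kind are named for the spacing of a pair of cysteines, and each binds a G protein-coupled receptor on the cell it attracts. *Cxcl1* and *Cxcl2* act on *Cxcr2* and draw neutrophils, *Cxcl9* and *Cxcl10* are induced by interferons and act on *Cxcr3* of activated T cells and natural killer cells, and *Cxcl13* acts on *Cxcr5* of B cells. *Cxcl12* holds *Cxcr4*-bearing cells in marrow and in perivascular niches, and *Cx3cl1*, or fractalkine, is a membrane-tethered ligand of neurons that keeps *Cx3cr1*-bearing microglia in check. In the ischemic brain, the inducible ligands are known as signals by which glia, vessels and infiltrating myeloid cells recruit blood leukocytes.

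RNA was sequenced from the brains of 12 male mice, 6 per group. Every recipient was a *Tet2*-sufficient CD45.1 mouse, irradiated at 8 to 12 weeks of age with the head shielded and transplanted with mixed bone marrow (BM), of which 90% of cells were of CD45.1, *Tet2*-intact origin. The remaining 10% came from CD45.2 donors that were either wildtype (WT) littermates or *Tet2*-knock out (*Tet2*-KO), and this donor named the group. A stroke was induced 8 to 10 weeks after transplantation by 30 min of middle cerebral artery occlusion. Microglia and all other cells of the brain itself therefore carried intact *Tet2* in both groups, and the sample labels give the tissue only as brain. The labels' treatment entry names control stem cells for all 12 mice, and the groups were taken from the titles and the genotype entry.

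The libraries held 12000261 to 15340787 counts per WT mouse and 12625047 to 21049763 per *Tet2*-KO mouse. *Tet2* itself was at a median of 129 CPM (counts scaled to the total of the library) with WT (126 to 147) and 134 CPM with *Tet2*-KO BM cells (117 to 137), and because most cells in these brains carried the gene intact, it does not check the labels. Markers of the labelled tissue were abundant, since 8 neuronal markers summed to 3428 to 4705 CPM with WT and 4341 to 5711 CPM with *Tet2*-KO BM cells. Nothing in the labels ties a mouse to a litter or surgery day, so the p-values below measure the spread between these 12 animals. *Tet2*-KO replicate 5 stood nearer to the WT mice than the rest of its group for most of the ligands, and results that rest on it are given with and without it.

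The 5 inducible ligands had lower values with *Tet2*-KO BM cells. *Cxcl1*, *Cxcl2* and *Cxcl13* differed most, at 6.56-fold, 6.74-fold and 5.09-fold lower mean CPM, *Cxcl10* was 2.37-fold lower and *Cxcl9* 1.53-fold lower. None passed a Benjamini-Hochberg adjusted threshold of 0.05 in the quasi-likelihood test of edgeR, where the 5 genes called lower made up 0.0246% of the 20290 tested. At an unadjusted p below 0.05, 3 of the 4 tested inducible ligands were lower, *Cxcl1*, *Cxcl10* and *Cxcl13*, against a background of 12.2% of all tested genes. The CPM values of *Cxcl1* and *Cxcl2* were separate between the groups, with all 6 *Tet2*-KO mice below all 6 WT mice. Of the tested genes, 0.641% showed this pattern. *Cxcl2* is not among the tested genes, and *Cxcl1* passed the filter in 6 WT and 0 *Tet2*-KO mice. That share is therefore not a like background for either.

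*Cxcl1* (ENSMUSG00000029380, chr5:90891241-90893115 on the plus strand of GRCm38), the mouse counterpart of the growth-regulated neutrophil chemokines, was at 1.50, 3.66, 1.22, 1.30, 1.32 and 1.82 CPM in WT replicates 1 to 6. In *Tet2*-KO replicates 1 to 6 it was at 0, 0.194, 0.135, 0.617, 0.549 and 0.154 CPM. WT replicate 2 was alone at the top, the other 5 WT mice lay close together, and the highest *Tet2*-KO mouse had 0.617 CPM where the lowest WT mouse had 1.22 CPM. The means were 1.80 ± 0.934 and 0.275 ± 0.249 CPM (SD, n = 6 per group), resting on 16 to 51 counts per WT mouse and at most 12 counts per *Tet2*-KO mouse. Its log2 fold change was -2.66 ± 0.48 (SE, 95% confidence interval -3.68 to -1.64, adjusted p = 0.0816 in edgeR), the 14th smallest p of the table. It passed the filter on low counts in 6 WT and 0 *Tet2*-KO mice, so it was tested through the group where it is high. That p and rank describe *Cxcl1* and support nothing further. An exact two-sided permutation test gave p = 0.002165, the smallest that 924 assignments of the mice allow, and the permutation p-values of the 10 ligands are given without adjustment.

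*Cxcl2* (ENSMUSG00000058427, chr5:90903871-90905938, plus strand), which acts on the same receptor and lies next to *Cxcl1*, ranged over 0.577 to 3.08 CPM with WT (median 1.05) and 0.0486 to 0.549 CPM with *Tet2*-KO BM cells (median 0.144). The highest WT mouse was again replicate 2 and the highest *Tet2*-KO mouse replicate 5, which was just under the lowest WT mouse. With 7 to 43 counts per WT mouse and 1 to 7 per *Tet2*-KO mouse it did not pass the filter, since the required 0.726 CPM in 6 mice was reached in 4 WT mice and in no *Tet2*-KO mouse. Fitted without that filter its log2 fold change was -2.81 (adjusted p in edgeR = 0.0573), and the exact permutation p was 0.002165. Of the 100-base stretches of its exons, 3.05% also occur in the exons of *Cxcl3*, so a small part of its reads may not map uniquely.

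The 250 bases before the transcription start of these neighbours are shown because they carry the same letters for an NF-kB site. They are RefSeq sequences of GRCm38.p6, written 5′ to 3′ on the gene's strand, with matches to the NF-kB consensus on either strand in capitals.

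Cxcl1 chr5:90890995-90891244, plus strand: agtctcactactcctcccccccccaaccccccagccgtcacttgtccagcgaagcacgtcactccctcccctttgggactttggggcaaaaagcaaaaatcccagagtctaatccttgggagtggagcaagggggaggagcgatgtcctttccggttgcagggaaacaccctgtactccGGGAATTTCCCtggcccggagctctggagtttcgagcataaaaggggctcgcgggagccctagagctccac

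Cxcl2 chr5:90903649-90903898, plus strand: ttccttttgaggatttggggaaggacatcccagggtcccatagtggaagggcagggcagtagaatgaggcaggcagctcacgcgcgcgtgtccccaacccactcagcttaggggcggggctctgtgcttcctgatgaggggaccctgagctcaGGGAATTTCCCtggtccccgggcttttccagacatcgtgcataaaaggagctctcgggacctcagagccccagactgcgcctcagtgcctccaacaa

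Matches to this consensus, counted in the same window, occurred in 2382 of 32851 mouse promoters (7.25%) and in 3 of the 9 ligand promoters that the table holds. In *Cxcl1* the match spanned bases -71 to -61 and in *Cxcl2* bases -97 to -87, counted backwards from the start, with an overlapping match on each strand and the same 11 letters in both genes. A match is a description of the letters, and binding was not measured in these brains.

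*Cxcl10* (ENSMUSG00000034855, chr5:92346638-92348889, minus strand), the interferon-inducible ligand of *Cxcr3*, was the most counted of the inducible ligands. It was at 15.3, 22.8, 14.4, 17.9, 14.9 and 13.7 CPM in WT replicates 1 to 6 and at 1.36, 4.81, 6.19, 10.2, 14.2 and 5.00 CPM in *Tet2*-KO replicates 1 to 6. Of the *Tet2*-KO mice 5 lay below every WT mouse, and replicate 5 lay inside the WT range. The means of 16.5 ± 3.41 and 6.97 ± 4.55 CPM (SD, n = 6 per group) gave a log2 fold change of -1.26 ± 0.40 (SE, 95% confidence interval -2.13 to -0.38, adjusted p = 0.131 in edgeR). The exact permutation p was 0.00433. Of its exon bases, 5.91% (133 of 2252) overlap *Art3* on the opposite strand, whose own log2 fold change was -0.35 at 3.43 and 2.70 CPM, and whether the counting used strand is not given in the sources used here.

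Its promoter is shown because it held the other NF-kB matches, at bases -159 to -150 and -104 to -94, and an interferon-stimulated response element (letters GAAANNGAAA, either strand) at bases -213 to -204. That element occurred in 2.98% of the 32851 promoters and, among the ligands, in *Cxcl14* too. The motifs are in capitals.

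Cxcl10 chr5:92348890-92349139, minus strand: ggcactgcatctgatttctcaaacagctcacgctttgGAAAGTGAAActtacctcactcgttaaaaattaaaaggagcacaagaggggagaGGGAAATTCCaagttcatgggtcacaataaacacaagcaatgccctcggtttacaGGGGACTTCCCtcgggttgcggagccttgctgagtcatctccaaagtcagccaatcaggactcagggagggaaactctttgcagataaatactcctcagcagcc

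*Cxcl9* (ENSMUSG00000029417, chr5:92321347-92328079, minus strand), the interferon-gamma-induced neighbour of *Cxcl10* with the same receptor, differed least among the inducible ligands. It was at 1.15 to 2.44 CPM with WT (median 1.42) and 0.248 to 2.51 CPM with *Tet2*-KO BM cells (median 0.894). *Tet2*-KO replicate 5 was above every WT mouse, and the other 5 were below every WT mouse. On the log2 scale the change was -0.67 ± 0.38 (SE, 95% confidence interval -1.48 to 0.14, adjusted p = 0.299 in edgeR), with an exact permutation p of 0.0887. Without replicate 5 it was -1.08 (adjusted p in edgeR = 0.0367), so this gene's call turned on 1 mouse.

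*Cxcl13* (ENSMUSG00000023078, chr5:95956951-95961068, plus strand), which organizes B cell follicles and is scarce in resting brain, was at 10.6, 13.3, 7.47, 13.9, 8.24 and 5.32 CPM in WT replicates 1 to 6. In *Tet2*-KO replicates 1 to 6 it was at 0.186, 0.243, 1.01, 3.14, 6.28 and 0.692 CPM. The *Tet2*-KO mice spread over a wide range, from a few counts (3) to 80 counts, and only replicate 5 reached the WT range. The means were 9.80 ± 3.38 and 1.92 ± 2.39 CPM (SD, n = 6 per group). The log2 fold change was -2.41 ± 0.64 (SE, adjusted p = 0.119 in edgeR), with an exact permutation p of 0.00433, and without replicate 5 it was -3.16 (adjusted p in edgeR = 0.0127). In both groups it and *Cxcl10* made up most of the summed level of the inducible ligands.

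**Figure D1:**
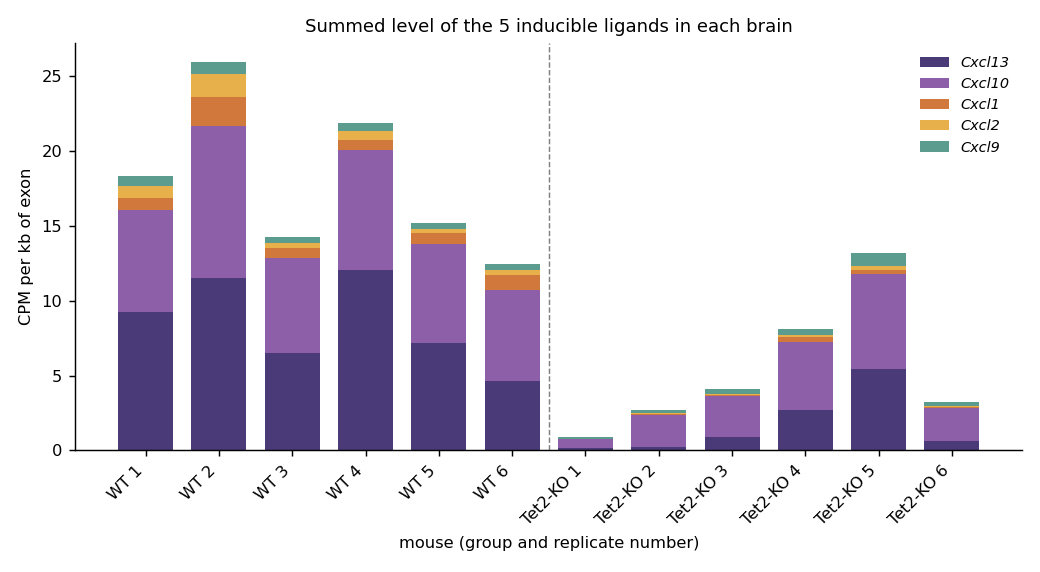
Summed level of the 5 inducible ligands in each of the 12 brains, in CPM per kb of exon, stacked by gene (linear axis from 0). The WT mice ranged from 12.5 to 25.9 and the *Tet2*-KO mice from 0.879 to 13.2, and *Tet2*-KO replicate 5 alone overlapped the WT range.

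The ligands made constantly in brain did not differ in one direction. *Cxcl12* was 1.56-fold lower in mean CPM with *Tet2*-KO BM cells, whereas *Cxcl14* and *Cx3cl1* were slightly higher, and none of the 3 passed the adjusted threshold in edgeR. At an unadjusted p below 0.05, *Cxcl12* was lower (background 12.2%) and *Cxcl14* was higher, where 10.8% of all tested genes were higher.

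*Cxcl12* (ENSMUSG00000061353, chr6:117168535-117181367, plus strand), made by vessel-associated stromal cells, endothelium and some neurons, was at 122, 150, 101, 126, 106 and 88.5 CPM in WT replicates 1 to 6. In *Tet2*-KO replicates 1 to 6 it was at 72.8, 65.8, 59.2, 83.1, 112 and 51.4 CPM. Here 5 *Tet2*-KO mice lay under the lowest WT mouse, and replicate 5 was above 3 WT mice. The means of 116 ± 22.0 and 74.0 ± 21.4 CPM (SD, n = 6 per group) gave a log2 fold change of -0.65 ± 0.19 (SE, 95% confidence interval -1.06 to -0.23, adjusted p = 0.123 in edgeR). The exact permutation p was 0.0108, and without replicate 5 the log2 fold change was -0.80 (adjusted p in edgeR = 0.0142).

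*Cxcl14* (ENSMUSG00000021508, chr13:56288643-56296551, minus strand), a ligand of neurons and epithelia whose receptor is not settled, was the steadiest of the 10, at 57.2 to 67.8 CPM with WT (median 64.6) and 64.6 to 73.5 CPM with *Tet2*-KO BM cells (median 69.4). Here 4 *Tet2*-KO mice were above every WT mouse and the ranges overlapped. Its log2 fold change was 0.11 ± 0.05 (SE, 95% confidence interval 0.004 to 0.22, adjusted p = 0.202 in edgeR), with an exact permutation p of 0.0303. Its promoter is shown because it held an interferon-stimulated response element at bases -172 to -163. It also held a gamma-activated sequence (letters TTCNNNGAA, in 7.02% of promoters) at bases -191 to -183, and both are in capitals. The *Cxcl12* window, shown beside it, held neither. Whether these motifs bear on the level of either gene was not tested. Neither these motifs nor the NF-kB consensus matched in the same window of *Cxcl12*, *Cxcl13*, *Cxcl9*, *Cx3cl1* and *Pf4*, which says only that these letters are not there.

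Cxcl14 chr13:56296552-56296801, minus strand: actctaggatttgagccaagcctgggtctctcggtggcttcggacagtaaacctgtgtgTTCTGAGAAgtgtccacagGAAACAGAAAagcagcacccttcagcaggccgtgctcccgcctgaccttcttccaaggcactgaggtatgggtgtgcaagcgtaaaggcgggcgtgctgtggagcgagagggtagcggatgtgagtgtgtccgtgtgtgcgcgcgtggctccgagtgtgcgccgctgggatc

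Cxcl12 chr6:117168285-117168534, plus strand: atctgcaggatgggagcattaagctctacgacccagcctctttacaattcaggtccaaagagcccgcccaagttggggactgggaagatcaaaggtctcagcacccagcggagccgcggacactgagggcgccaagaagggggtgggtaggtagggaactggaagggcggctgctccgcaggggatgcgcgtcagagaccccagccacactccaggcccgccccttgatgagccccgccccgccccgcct

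*Cx3cl1* (ENSMUSG00000031778, chr8:94772009-94782427, plus strand) was at 510, 378, 467, 528, 498 and 469 CPM in WT replicates 1 to 6 and at 665, 579, 534, 479, 451 and 563 CPM in *Tet2*-KO replicates 1 to 6. WT replicate 2, the highest WT mouse in *Cxcl1*, *Cxcl2*, *Cxcl9*, *Cxcl10*, *Cxcl12* and *Cxcl16*, was the lowest of all 12 for this ligand, and *Tet2*-KO replicates 4 and 5 lay within the WT range. The means were 475 ± 52.9 and 545 ± 76.2 CPM (SD, n = 6 per group). On the log2 scale the change was 0.20 ± 0.09 (SE, 95% confidence interval -0.003 to 0.40, adjusted p = 0.223 in edgeR) with an exact permutation p of 0.0996, and the interval reached below 0. Of the 8 neuronal markers, 6 were higher with *Tet2*-KO BM cells at an unadjusted p below 0.05 (background 10.8%), with a median log2 fold change of 0.23 over the 8, from *Map2* at 1304 and 1510 CPM to *Nefm* at 139 and 139 CPM. Their part in the level of this neuronal ligand was not tested. In RNA from whole tissue, fewer cells of a kind and less RNA per cell cannot be told apart, which holds for each ligand here.

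*Cxcl16* and *Pf4* fit neither group of ligands. *Cxcl16* (ENSMUSG00000018920, chr11:70453983-70459984, minus strand), a membrane-bound ligand of *Cxcr6* that myeloid cells carry and that also takes up oxidized lipids, was at 19.2, 30.6, 14.2, 20.2, 15.6 and 13.3 CPM in WT replicates 1 to 6 and at 3.10, 7.24, 10.5, 10.8, 14.4 and 6.31 CPM in *Tet2*-KO replicates 1 to 6. Only *Tet2*-KO replicate 5 reached the WT range, above WT replicates 3 and 6. The log2 fold change was -1.12 ± 0.33 (SE, 95% confidence interval -1.84 to -0.40, adjusted p = 0.123 in edgeR) and the exact permutation p 0.00649. Of its exon bases, 18.3% (552 of 3021) overlap *Zmynd15* on the opposite strand, which averaged 4.19 ± 1.38 and 1.99 ± 0.897 CPM (SD, n = 6 per group), with -1.08 on the log2 scale. Without the strand of the counting, reads in the shared bases cannot be assigned to one of the genes.

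*Pf4* (ENSMUSG00000029373, chr5:90772435-90773383, plus strand), platelet factor 4, is stored in platelet granules and is also made by some macrophages. It was at 0.718 to 1.17 CPM with WT (median 0.920) and 0.309 to 1.10 CPM with *Tet2*-KO BM cells (median 0.449), on 10 to 18 and 5 to 14 counts per mouse. All *Tet2*-KO mice but replicate 5 lay under the lowest WT mouse. Its log2 fold change was -0.81 ± 0.29 (SE, 95% confidence interval -1.42 to -0.19, adjusted p = 0.139 in edgeR) and the exact permutation p was 0.0195. The 8 platelet markers summed to 19.7 to 22.2 CPM with WT and 18.3 to 23.1 CPM with *Tet2*-KO BM cells. Their 5 tested members had a median log2 fold change of -0.005, none lower and *Gp1bb* higher at an unadjusted p below 0.05 (background 12.2% and 10.8%), from *Itgb3* at 9.36 and 7.53 CPM down to *Gp6* at 0.0485 and 0.0297 CPM. The 8 markers of border-associated macrophages summed to 181 to 375 CPM and 44.2 to 245 CPM, and 5 of them were lower at that p, with a median log2 fold change of -0.97. *Stab1*, at 174 and 87.8 CPM, made up most of these sums, and *Cd163* and *Lyve1* had log2 fold changes of 0.04 and 0.22. Of the 5 lower markers, *Folr2* passed the filter in 6 WT and 2 *Tet2*-KO mice. Their count therefore describes the markers and supports nothing further. The part of platelets or of these macrophages in the level of *Pf4* was not tested.

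**Figure D2:**
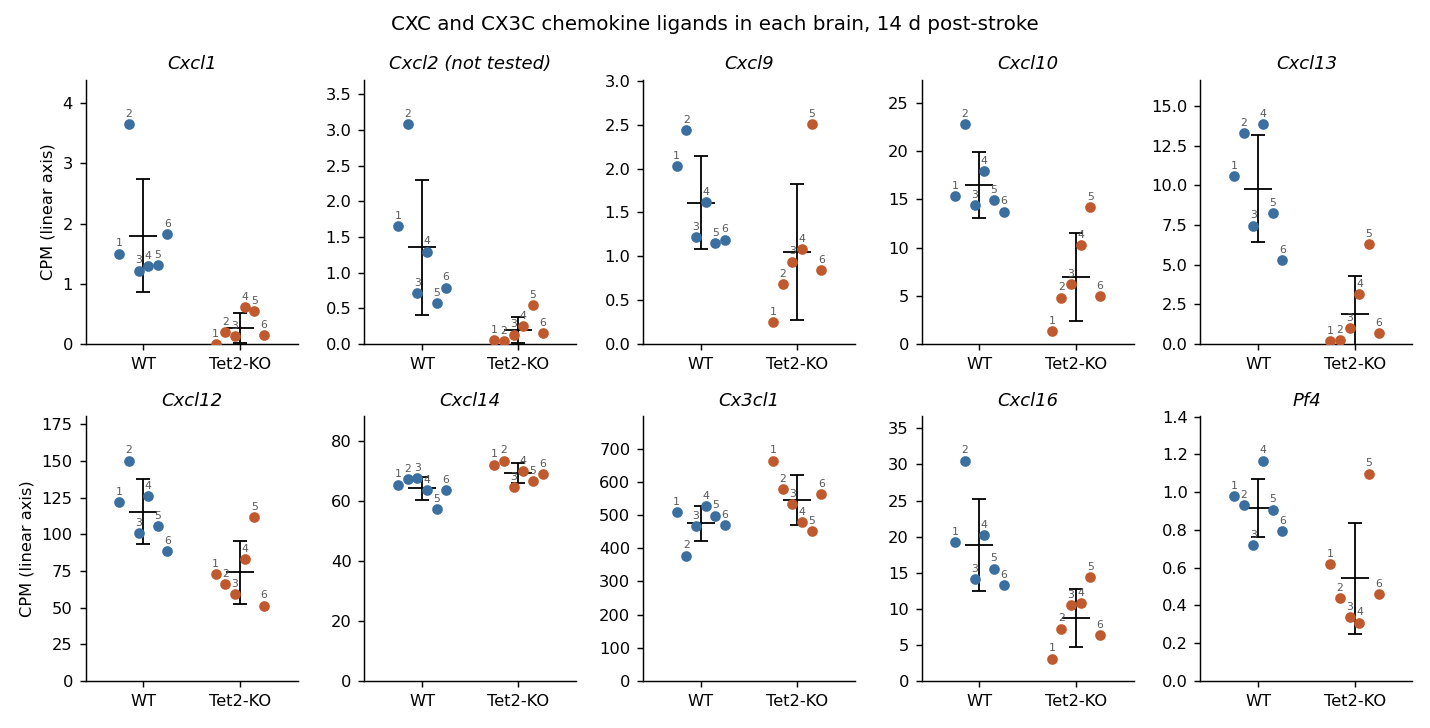
CPM of each ligand in each of the 12 brains on linear axes from 0, with one point per mouse, its replicate number above it, and the mean ± SD of the 6 mice per group (bars that would pass below 0 end there). *Cxcl1* and *Cxcl2* were separate between the groups, and the other 8 ligands overlapped, the 6 lower ones among them through *Tet2*-KO replicate 5.

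Set side by side, the inducible ligands had a median log2 fold change of -1.83 over the 4 tested, the constitutive ligands 0.11 over 3, and *Cxcl16* and *Pf4* -0.96, where the median of all tested genes was 0.01. *Cxcl13*, a homeostatic ligand of lymphoid organs, was placed with the inducible ligands by choice, and this median depends on that. Beside it, the tested inducible ligands were *Cxcl1* at -2.66, *Cxcl10* at -1.26 and *Cxcl9* at -0.67. The inducible median was -2.41 without the filter on low counts, where *Cxcl2* entered, and -2.89 without *Tet2*-KO replicate 5, where it entered too. The filter on low counts was passed by *Cxcl1* in 6 WT and 0 *Tet2*-KO mice, by *Cxcl13* in 6 and 3, by *Cxcl9* in 6 and 4 and by *Pf4* in 5 and 1. Genes that pass mainly through the group where they are high had to differ. These medians and counts, and the edgeR p-values of those genes, therefore describe the ligands and support nothing further. Of the 9 tested ligands, 6 were lower and 1 was higher at an unadjusted p below 0.05, against 12.2% and 10.8% of all tested genes.

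**Figure D3:**
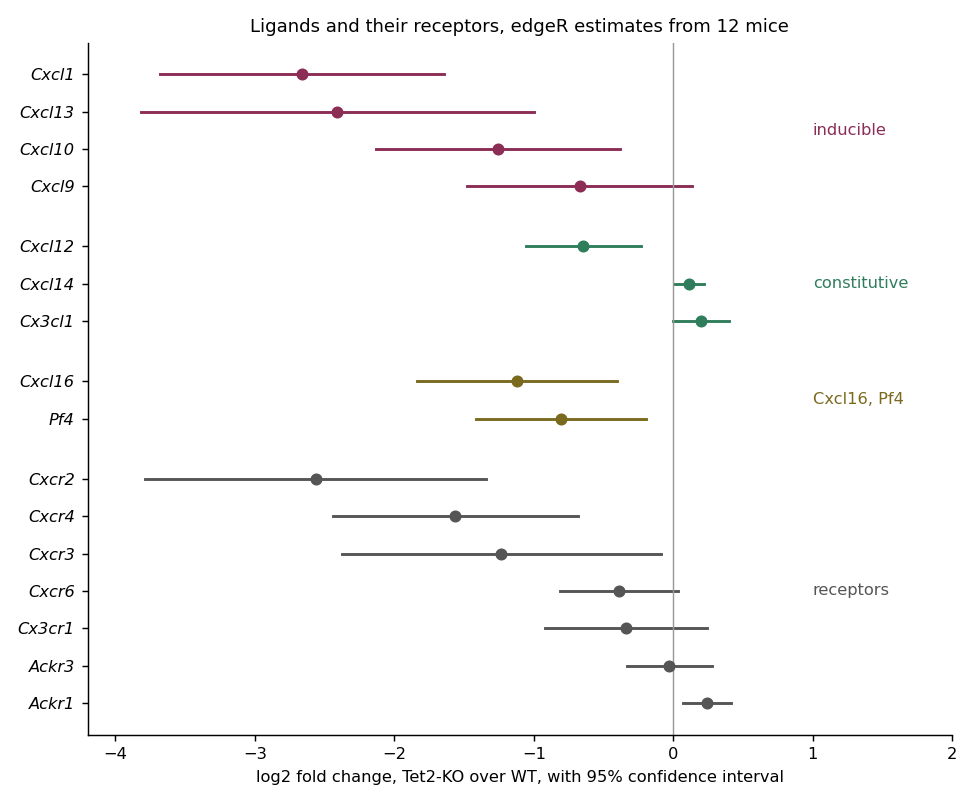
log2 fold change of *Tet2*-KO over WT (x axis) with its 95% confidence interval for the 9 tested ligands by role and the 7 tested receptors, from edgeR with 12 mice. The intervals of *Cxcl1*, *Cxcl13*, *Cxcl10*, *Cxcl12*, *Cxcl16* and *Pf4* lie below 0, that of *Cxcl14* lies just above it, and those of *Cxcl9* and *Cx3cl1* cross it.

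Whether a ligand passed the threshold turned on the test and on 1 mouse. With the DESeq2 Wald test on the same genes, 5 of the 9 tested ligands were lower past an adjusted threshold of 0.05. They were *Cxcl1*, *Cxcl10*, *Cxcl12*, *Cxcl13* and *Cxcl16*, where 4.62% of all tested genes were lower. *Cxcl1* had passed the filter in 6 WT and 0 *Tet2*-KO mice and *Cxcl13* in 6 and 3. This count therefore describes the ligands and supports nothing further. In edgeR without *Tet2*-KO replicate 5, 8 ligands were lower past that threshold, all but *Cxcl14* and *Cx3cl1*, where 7.3% of 20525 tested genes were lower. Without that mouse the log2 fold changes were -2.89 for *Cxcl1* (adjusted p in edgeR = 0.00904), -3.31 for *Cxcl2* (0.00804), -1.57 for *Cxcl10* (0.0241), -1.31 for *Cxcl16* (0.0295) and -1.08 for *Pf4* (0.0185). Leaving out any of the other 11 mice gave 0 ligands past it. The direction of each of the 9 ligands held in all 12 of those fits. *Tet2*-KO replicate 5 was the highest of its group in 7 ligands, so leaving it out had to lower the group's mean there. The adjusted p-values without it describe the weight of that mouse and support nothing further.

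**Figure D4:**
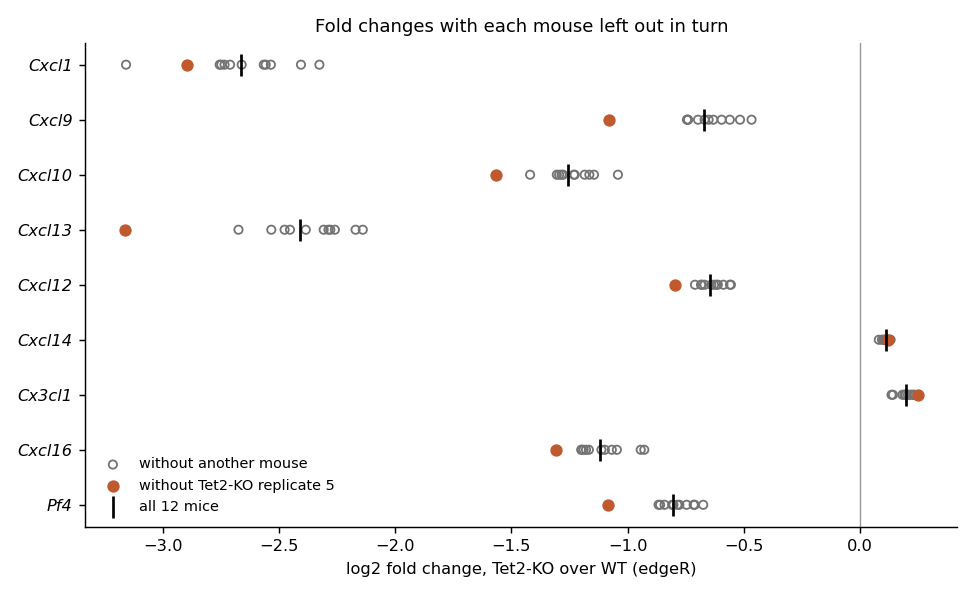
log2 fold change of *Tet2*-KO over WT in edgeR for the 9 tested ligands, with all 12 mice (bar), without *Tet2*-KO replicate 5 (filled point) and without each other mouse in turn (open points). *Cxcl13* ranged from -3.16 to -2.14 and *Cxcl9* from -1.08 to -0.47, both lowest without replicate 5, and no ligand crossed 0.

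Compared with one another on a scale of CPM per kb of exon, the level of *Cx3cl1* was far above that of every other ligand in both groups. With WT BM cells the order was *Cx3cl1* at 121, *Cxcl14* at 35.1, *Cxcl12* at 14.1, *Cxcl13* at 8.52, *Cxcl10* at 7.33, *Cxcl16* at 6.24, *Pf4* at 1.27, *Cxcl1* at 0.962, *Cxcl2* at 0.655 and *Cxcl9* at 0.533 CPM per kb. The ranges of *Cx3cl1* and *Cxcl14*, of *Cxcl14* and *Cxcl12*, and of *Cxcl16* and *Pf4* were apart, and those of the other neighbours overlapped. With *Tet2*-KO BM cells the first 3 kept their order at 139, 37.9 and 9.05 CPM per kb, *Cxcl13* at 1.67 came after *Cxcl10* at 3.09 and *Cxcl16* at 2.89, and *Cxcl9* at 0.349 came before *Cxcl1* at 0.147. In that group only *Cx3cl1* and *Cxcl14*, and *Cxcl14* and *Cxcl12*, were neighbours with ranges apart.

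The summed level of the 10 ligands was 196 ± 12.3 and 195 ± 14.3 CPM per kb with WT and *Tet2*-KO cells (SD, n = 6 per group), so the totals differed by less than the spread between mice. The 5 inducible ligands made up 9.18% ± 2.52 of that sum in WT and 2.86% ± 2.49 of it in *Tet2*-KO mice (SD, n = 6 per group), with ranges of 6.81% to 13.7% and 0.399% to 7.13% that met only through *Tet2*-KO replicate 5. *Cx3cl1* alone made up 61.8% ± 5.45 and 71.0% ± 5.39 of it (SD, n = 6 per group).

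The mice differed from each other along the same lines within a group. *Tet2*-KO replicate 1 was the lowest of its group in *Cxcl1*, *Cxcl9*, *Cxcl10*, *Cxcl13* and *Cxcl16* and the highest in *Cx3cl1*, while *Tet2*-KO replicate 5 was the highest of its group in 7 ligands and the lowest in *Cx3cl1*. After each group's mean was taken away, Pearson's r of log2 CPM over the 12 mice was 0.93 between *Cxcl10* and *Cxcl16* and between *Cxcl9* and *Cxcl10*, and -0.92 between *Cxcl1* and *Cx3cl1*. For *Cxcl14* it lay between -0.30 and 0.10 with every other tested ligand. These values share libraries and depth and are a description over 12 mice.

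**Figure D5:**
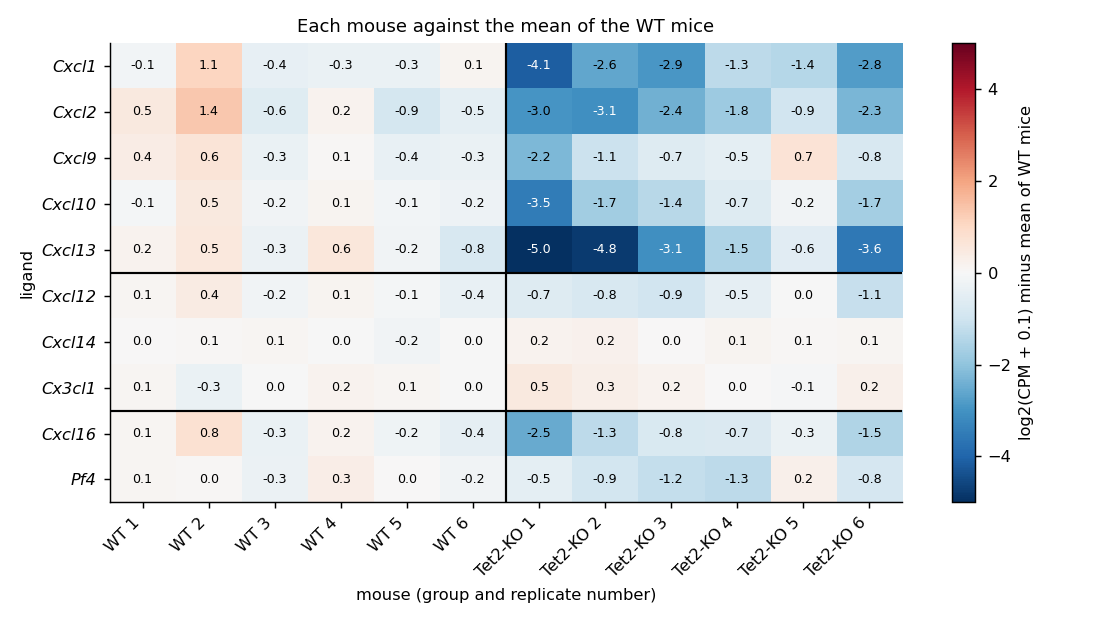
log2(CPM + 0.1) of each ligand in each mouse minus the mean of the 6 WT mice, with WT on the left, *Tet2*-KO on the right and the ligands grouped by role. *Cxcl13* was at -5.04 in *Tet2*-KO replicate 1 and at -0.56 in *Tet2*-KO replicate 5, and the row of *Cxcl14* stayed between -0.16 and 0.20.

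Of 9 receptors of these ligands, 7 passed the filter, and 3 were lower at an unadjusted p below 0.05, as were 12.2% of all tested genes. *Cxcr2* and *Cxcr3* passed the filter in 6 WT and 2 *Tet2*-KO mice each, mainly through the group where they are high, so the count describes the receptors and supports nothing further. *Cxcr4*, the receptor of *Cxcl12*, was at 10.4 to 31.6 CPM with WT (median 14.4) and 1.98 to 10.3 CPM with *Tet2*-KO BM cells (median 4.44), with all 6 *Tet2*-KO mice below all WT mice (0.641% of the tested genes), and its log2 fold change was -1.56 ± 0.40 (SE, adjusted p = 0.115 in edgeR). *Cxcr2*, which binds *Cxcl1* and *Cxcl2*, averaged 2.89 ± 1.64 and 0.493 ± 0.518 CPM (SD, n = 6 per group), and its log2 fold change was -2.56 ± 0.56 (SE, adjusted p = 0.110 in edgeR). *Cxcr3*, which binds *Cxcl9* and *Cxcl10*, averaged 1.18 ± 0.430 and 0.524 ± 0.640 CPM (SD, n = 6 per group), and had -1.23 ± 0.53 (SE, adjusted p = 0.190 in edgeR).

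*Cx3cr1*, the microglial partner of *Cx3cl1*, was at 151 to 300 CPM with WT and 74.0 to 211 CPM with *Tet2*-KO BM cells, or -0.34 on the log2 scale (95% confidence interval -0.92 to 0.24), and *Cxcr6*, the partner of *Cxcl16*, had -0.39 (95% confidence interval -0.81 to 0.04). The scavenging receptor *Ackr3*, which removes *Cxcl12*, had a log2 fold change of -0.03, and *Ackr1*, a decoy receptor of venules and red cells, was the one receptor higher at an unadjusted p below 0.05 (background 10.8%), at 26.3 and 31.1 CPM. *Cxcr5*, the receptor of *Cxcl13*, and *Cxcr1* did not pass the filter, at 0.940 and 0.474 CPM and at 0.240 and 0.0355 CPM.

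Enzymes that trim or shed these ligands were measured from the same fit, and 4 of 5 were lower at an unadjusted p below 0.05 (background 12.2%), none past the adjusted threshold. *Adam17*, which sheds *Cx3cl1* and *Cxcl16* under stimulation, had a log2 fold change of -0.60 and *Adam10*, which sheds them constantly, -0.09. *Dpp4*, which clips *Cxcl10* and *Cxcl12*, had -0.42 with all 6 *Tet2*-KO mice below all WT mice, as in 0.641% of the tested genes, and the gelatinases *Mmp2* and *Mmp9*, which cleave *Cxcl12*, had -1.02 and -0.95.

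Markers of several other cell types were also lower with *Tet2*-KO BM cells. The counts of markers below are to be read against the 12.2% of all tested genes that were lower, and the 10.8% that were higher, at an unadjusted p below 0.05. Of 8 monocyte markers 7 were lower at an unadjusted p below 0.05, with a median log2 fold change of -1.77. They summed to 433 to 879 CPM with WT and 155 to 530 CPM with *Tet2*-KO BM cells, from *Fn1* at 474 and 221 CPM to *Chil3* at 1.31 and 0.464 CPM. The sums averaged 574.8 and 284.5 CPM, so *Fn1* alone made up most of them and they do not measure the monocytes. All 8 fibroblast markers were lower at that p, with a median of -1.30 and sums of 676 to 1508 and 210 to 853 CPM, from *Col1a1* at 292 and 114 CPM to *Lum* at 23.5 and 9.27 CPM. The 8 neutrophil markers summed to 5.95 to 15.1 and 1.69 to 4.79 CPM. The 3 tested, *S100a8*, *S100a9* and *Mmp8*, were lower at that p with a median of -2.16, and *S100a8* at 4.52 and 1.01 CPM and *S100a9* at 2.18 and 0.305 CPM passed the adjusted threshold in edgeR (adjusted p = 0.0364 for each). *S100a9* passed the filter in 6 WT and 0 *Tet2*-KO mice and *Mmp8* in 5 and 1. Among those not tested, *Camp* was at 0.208 and 0.158 CPM, *Ngp* at 0.741 and 0.579 CPM and *Retnlg* at 0.576 and 0.509 CPM. *Ly6g*, which defines the type, was at the floor in both groups, at 0.0228 CPM from 2 counts over all WT mice and at 0 in every *Tet2*-KO mouse. Of 7 microglia markers 2 were lower, with a median of -0.17 and sums of 338 to 575 and 172 to 428 CPM, and of 8 astrocyte markers none was lower, with a median of -0.05.

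Lymphocyte, vessel and red cell markers were read in the same way. Of 8 B cell markers 3 were tested and lower at an unadjusted p below 0.05, with a median of -1.23, and of 8 T cell markers 5 were tested and lower, with a median of -0.84. Some of these passed the filter mainly through WT mice, *Cd79b* in 5 WT and 1 *Tet2*-KO mice, *Cd8a* in 5 and 2 and *Cd3e* in 6 and 3, so these counts support nothing further. Of 8 endothelial markers 4 were lower, with a median of -0.27. Of 5 tested red cell markers 3 were higher, with a median of 0.54. In *Tet2*-KO replicate 5 the monocyte markers, a sum made up mostly of *Fn1*, came to 530 CPM and the fibroblast markers to 853 CPM. Both were the highest of its group, as for 7 of the ligands. The part of these cell types in the levels of the ligands was not tested.

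Each tested ligand was also set against 19101 genes with a mean of at least 1 CPM, by the same within-group r over 12 mice. The genes most like *Cxcl1* were *Rin2* (r = 0.99) and *Loxl3*, those most like *Cxcl10* were *Plbd1* (r = 0.99), *Gm1966* and *Lum*, and those most like *Cxcl9* were *Slfn10-ps* (r = 0.98), *Gm26522* and *Ifi30*. *Cxcl13* was most like *Slfn4* (r = 0.98), *Plac8* and *Gm20559*, *Cxcl12* most like *Fxyd5* (r = 0.98), *Tmem45a* and *Serpinb6a*, and *Cxcl16* most like *Ncf4* (r = 0.98), *Fam3a* and *Nfkbiz*. *Cx3cl1* was most like *Lzts3* (r = 0.98), *Zfr2* and *Dmtn*. The nearest genes of *Cxcl14*, *Kcng4* (r = 0.89), *Myl12b* and *Gm32817*, and of *Pf4*, *Masp2* (r = 0.89), *Ly96* and *Papola*, were less alike.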

How the data were processed

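RNA-seq of 12 brains was analysed from the table of gene counts that the authors deposited, which is not normalized. The authors depleted ribosomal RNA and sequenced paired reads. Per the submitters' processing notes, reads were processed with Trimmomatic 0.36, STAR 2.5.2b and featureCounts (Subread 1.5.2) on mm10, and uniquely mapped reads in exons were counted. Groups came from sample titles and genotype. Symbols, coordinates and exon lengths are from GENCODE M21 (GRCm38), and all 125 listed genes matched.

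Counts were filtered (filterByExpr), scaled (TMM) and tested in R 4.3.3 with the robust quasi-likelihood test of edgeR 4.0.16 over all 12 mice without covariates, with Benjamini-Hochberg adjustment over 20290 genes. CPM divides counts by the library total of the filtered genes times its TMM factor, and permutation tests use log2(CPM + 0.1). The filter on low counts used CPM of the total counts without that factor. Log2 CPM for correlations used a prior count of 2. Standard errors and intervals are from the same fit. Alternatives were DESeq2 1.42.0, limma 3.58.1, other scalings and filters, a block by replicate number and each mouse left out. Scripts were tested on simulated data. The named genes are the 10 ligands, the listed ligands, receptors and enzymes, the highest and lowest gene of a marker list, and the 3 genes most like each ligand, of which 1 gene, left out of a marker list too, is not reported here. *Art3* and *Zmynd15* were added for their overlap. *Gp1bb*, *Cd163*, *Folr2*, *Tet2* and the neutrophil, B cell and T cell markers were named beyond that rule after their values were seen. Members, lists and tests were chosen with earlier results of these data known. Total counts of 12000261 to 21049763 per mouse limit the precision of ligands with a few counts.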

Additional observations from a re-analysis of the deposited data

Results flagged for a closer look

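Within each group of 6 mice, the highest and the lowest mouse of each ligand was set against the others by the gap to its nearest neighbour divided by the range of the group. Of 20 sets of values, 2 passed the 95% critical value of Dixon's test, and chance alone passes about 1 in 20. *Cxcl1* in WT replicate 2, at 3.66 CPM where the next WT mouse had 1.82 CPM, had a ratio of 0.7521. *Cxcl9* in *Tet2*-KO replicate 5, at 2.51 CPM where the next mouse of its group had 1.08 CPM, had a ratio of 0.6322. Without WT replicate 2 the log2 fold change of *Cxcl1* was -2.33, and without *Tet2*-KO replicate 5 that of *Cxcl9* was -1.08, against -2.66 and -0.67 with all mice.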

How the results depend on the processing

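The direction of each tested ligand held under every alternative. The number of ligands lower past the adjusted threshold, 0 in edgeR, was 5 with DESeq2 on the same genes and 5 on all genes with a count (chosen after seeing the data, *Cxcl2* in place of *Cxcl10*), 6 with limma-voom, 1 (*Cxcl1*, edgeR adjusted p = 0.0493) without a filter on low counts, and 0 to 8 with one mouse left out, the 8 without *Tet2*-KO replicate 5. In both directions together these fits called 1464 of 20290, 902 of 37685, 2013 of 20290 and 44 of 37685 genes. Without that mouse 2257 of 20525 were called, against 5 of 20290 in the main fit. Lower genes alone numbered 937 with DESeq2 on the same genes and 1498 without that mouse. For the other alternatives the share of all genes that were lower was not counted, so their ligand and receptor counts are a description. The counts with DESeq2 and without that mouse include ligands that passed the filter mainly through WT mice, and are a description too. The number lower at an unadjusted p below 0.05, 6 in edgeR, was 3 with at least 10 counts in every library, where 5 ligands were left. The receptors lower at that p, 3 in edgeR, numbered 5 with DESeq2 on all genes, 6 without a filter and 1 with at least 10 counts in every library. With one mouse left out they numbered 2 to 4. The median log2 fold change of the inducible ligands, -1.83, was -2.89 without *Tet2*-KO replicate 5, where *Cxcl2* also passed the filter, and -1.61 to -2.45 without another mouse. The cause of the differences between tests was not tested.

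Nothing in the labels says that the replicate numbers of the titles pair the mice. Mice with the same number deviated together with r from -0.17 to 0.23, and only replicate 6 matched its own number best. Such values cannot exclude a shared cage, litter or surgery day. With the number as a replicate block, 0 ligands passed the adjusted threshold, 6 were lower at an unadjusted p below 0.05, 3 receptors were lower, the inducible median was -2.06 and the constitutive median 0.11. Upper quartile scaling moved the median of all genes from 0.01 to 0.04. *Cxcl1*, *Cxcl2*, *Cxcl9* and *Pf4* rest on few counts per mouse, so their fold changes are imprecise.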

Other observations

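Other CXC ligands, outside the 10, were measured in the same libraries. *Cxcl5*, a neutrophil-attracting ligand of *Cxcr2* that lies near *Cxcl1*, was at 4.53 to 17.6 CPM with WT (median 6.07) and 0.558 to 4.37 CPM with *Tet2*-KO BM cells (median 1.53). The highest *Tet2*-KO mouse was replicate 4, just under the lowest WT mouse, and replicate 5 was at 1.65 CPM. All 6 *Tet2*-KO mice were thus below all 6 WT mice, as in 0.641% of the tested genes. On the log2 scale this was -1.81 ± 0.51 (SE, adjusted p = 0.123 in edgeR). *Cxcl17*, a mucosal ligand, was at 0.967 and 1.15 CPM, or 0.26 on the log2 scale (adjusted p = 0.635 in edgeR). *Cxcl3*, *Cxcl11*, *Ppbp* and *Cxcl15* did not pass the filter. *Cxcl11*, which the annotation gives as a polymorphic pseudogene, was at 0.290 and 0.0904 CPM, *Cxcl3* at 0.0515 and 0.0443 CPM, *Ppbp*, the platelet basic protein, at 0.109 and 0.0784 CPM, and *Cxcl15* had no counts in any mouse.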
